A study of Drosophila melanogaster with 12 samples.

Results

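The 38 genes described here are listed as neuropeptide and peptide hormone genes of Drosophila melanogaster, among them those of 4 insulin-like peptides. The list also holds the neuropeptide-like precursors Nplp1 to Nplp4, not all of which are established neuropeptide genes. The genes were taken from a fixed list of names, each represented by its probe set on the array that is annotated to that gene alone. All 38 were found under their current symbols, each with a single probe set, of 11983 genes with such a probe set. Whole males were pooled in eights, so each sample is the RNA of 8 flies, and 12 such samples, in 4 groups of 3, were hybridised to Affymetrix Drosophila Genome 2.0 arrays. The first group was males exposed for 24 hours to methylphenidate, a psychostimulant that blocks dopamine and noradrenaline reuptake in mammals, and the second was males exposed for 24 hours to sucrose. The third was F1 sons of sucrose-exposed fathers and methylphenidate-exposed mothers, and the fourth was F1 sons of sucrose-exposed fathers and mothers. The titles call all of them wt. No label gives the strain, the age of the flies, what the F1 males themselves were fed or when the parents were exposed. The series text names only the cross with drug-exposed mothers for the 6 F1 samples. The sample labels name both crosses and were followed. Whether the 3 pools of a group were reared apart is not stated, and the p-values cover only the spread between these pools, which may be technical.

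Neuropeptides and peptide hormones are cut from larger precursor proteins, packed into dense-core vesicles and released from neurons and endocrine cells. Most act on G protein-coupled receptors, while insulin-like peptides act chiefly on a receptor tyrosine kinase. In flies they carry signals between gut, fat body, brain and renal tubules that set feeding, energy stores, water balance, moulting and sleep.

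Values are the log2 signals the authors deposited, on which 1 unit is a 2-fold difference. The median signal was 1.37 on the third array of sons of sucrose-exposed parents and between 1.49 and 1.57 on the other 11. That array had the lowest value of its group for 22 of the 38 genes and the lowest of all 12 for 10 of them. Within groups, arrays correlated at 0.9951 to 0.9975. Between 36.8% and 38.8% of probe sets on each array lay under 0.5, close to the floor, where differences are understated. The difference between the 3′ and 5′ GAPDH control probe sets, a sign of RNA integrity, was 1.504 ± 0.0030 in methylphenidate-exposed males and 1.62 ± 0.086 in sucrose-exposed males (SD, n = 3 each). It was 1.53 ± 0.023 in sons of drug-exposed mothers and 1.54 ± 0.044 in sons of sucrose-exposed parents (SD, n = 3 each). Of the 4 female transcripts found, the yolk protein genes Yp1 and Yp2 and the chorion gene Cp36 had means under 0.5, while the yolk protein gene Yp3 averaged 3.18 in sons of drug-exposed mothers, 3.19 in sons of sucrose-exposed parents, 1.70 in methylphenidate-exposed males and 1.80 in sucrose-exposed males. Means were also under 0.5 for 3 of 3 genes listed as larval or pupal (Sgs3, Sgs7 and Edg78E). Larval transcripts were not absent, as Lsp2 and Fbp1, larval proteins listed here under fat body, were measured. Lsp2 averaged 9.01 in sons of drug-exposed mothers, 8.34 in sons of sucrose-exposed parents, 7.15 in methylphenidate-exposed males and 6.95 in sucrose-exposed males. Fbp1 averaged 4.11, 2.74, 1.05 and 0.39 in the same order. Neuronal genes were well measured, their mean log2 signal over 8 genes lying between 3.56 and 3.95 on every array.

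Over all 4 groups, 8 of the 38 genes (21.1%) differed between groups in limma's moderated F test at an adjusted p under 0.05. The share was 21.9% of all probe sets, and 29.5% of genes taken at 1 probe set per gene, as the 38 are. The 8 genes were CCHa2, ETH, Nplp2, Nplp3, Nplp4, Ilp5, Akh and Capa. In the 4 comparisons between pairs of groups or effects, 6 genes passed the same threshold in at least 1 of them. A further count, of genes that passed neither there nor in the F test, was 29. The array's shares for these counts were not computed, so the counts cannot be set against the array. Most probe sets of the array were not called in the F test either. The 29 included every listed gene of clocks, sleep and behaviour (amn, CNMa, Pdf, SIFa, spab and Trissin). They also included the 8 of muscle, gut and other regulation: the allatostatins AstC and AstCC, corazonin (Crz), FMRFa, Mip, myosuppressin (Ms), orcokinin (Orcokinin) and proctolin (Proc). Of the 38 genes, 7 averaged under 0.5 over the 12 arrays, 18.4% of the list against 37.7% of the array. These dim genes were amn, AstCC, CCHa1, CNMa, Eh, Ilp7 and Ilp8, and their differences are the most understated. The spread within groups, pooled over the 4 groups, was an SD of 0.06 (ITP) to 0.32 (Nplp3) with a median of 0.14, against 0.11 for the median probe set.

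**Figure D1:**
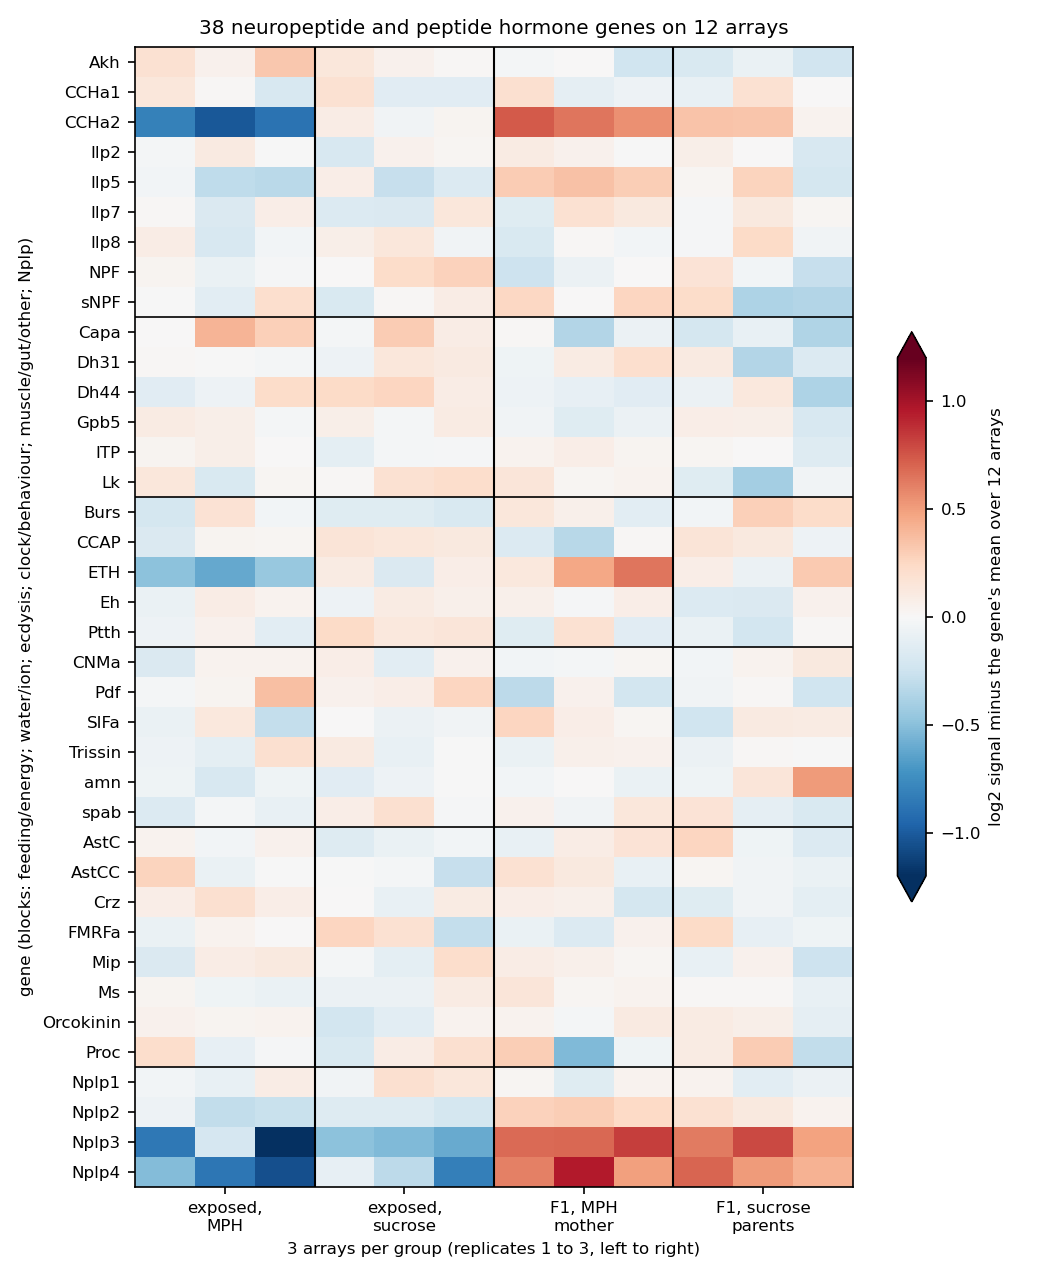
Log2 signal of each of the 38 genes (rows, by role) on each of the 12 arrays (columns, by group; MPH is methylphenidate), shown as the difference from that gene's mean over the arrays. Nplp2, Nplp3 and Nplp4 lie above their means on all 6 F1 arrays, and CCHa2 and ETH are lowest in the methylphenidate-exposed males.

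In exposed males the comparison asks what a day on the drug did to the flies themselves. Transcripts of CCHa2, a nutrient-responsive peptide of gut and fat body that acts on the insulin-producing cells through its receptor CCHa2-R, fell by 0.93 on the log2 scale in drug-exposed males, and those of ETH, the ecdysis-triggering hormone, by 0.52. These were 2 of 38 genes (5.26%), both lower and none higher, against 3.35% of all probe sets called and 0.97% called lower. At 1 probe set per gene the array's shares were 4.58% and 1.34%. Groups did not overlap for 6 genes (15.8%), against 21.2% of probe sets. Over the 38 genes the median change was -0.03, against -0.02 over all probe sets. As in any whole-animal measurement, fewer cells of a type and less RNA per cell cannot be told apart.

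CCHa2 had a log2 signal of 4.02, 3.81 and 3.95 in methylphenidate-exposed males, against 4.93, 4.79 and 4.86 in sucrose-exposed males. Every drug-exposed array lay below every sucrose-exposed array, with a gap several times the spread within either group. The change was -0.93 (SE 0.09, 95% interval -1.13 to -0.73), a signal 1.91-fold lower, with an adjusted p of 2.36e-05 in limma. ETH is made by the Inka cells, which trigger moulting behaviour in the young fly and persist in the adult. Its signal was 0.84, 0.72 and 0.88 in methylphenidate-exposed males and 1.43, 1.16 and 1.42 in sucrose-exposed males. The groups did not overlap, though all 6 values were low on the array's scale. ETH fell by 0.52 (SE 0.13), with an adjusted p of 0.0409 in limma, just inside the threshold. That call was lost without any one of the 3 drug-exposed arrays (adjusted p of 0.106, 0.126 and 0.0778 without replicates 1, 2 and 3) and without sucrose-exposed replicate 1 (0.168) or 3 (0.148). It was also lost without replicate 1 of the sons of sucrose-exposed parents (0.0562) or replicate 2 of the sons of drug-exposed mothers (0.059), after quantile normalization (0.0541), and with the GAPDH difference as a covariate, where ETH had a change of -0.42 with an adjusted p of 0.506.

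At an unadjusted p under 0.05 there were 4 genes (10.5%), against 15.3% of probe sets. The other 8 genes of feeding and energy balance had changes between -0.19 and 0.12. The lowest was NPF, neuropeptide F, which promotes feeding, at -0.19 (95% interval -0.42 to 0.05). The highest was Akh, adipokinetic hormone, which mobilises stored fat and sugar, at 0.12 (interval -0.07 to 0.32). The brain insulins Ilp2 and Ilp5 had changes of 0.07 (interval -0.12 to 0.26) and -0.10 (interval -0.36 to 0.16), and sNPF, a further feeding peptide, one of 0.05 (interval -0.26 to 0.36), none past the threshold. The 6 genes of water and ion balance ranged from -0.18 for the diuretic hormone Dh44 to 0.11 for Capa, whose peptides act on the renal tubules, and none passed.

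Of the ecdysis group besides ETH, Ptth, the hormone that drives ecdysone synthesis in the larva, had 0.76, 0.87 and 0.69 in methylphenidate-exposed males, against 1.05, 0.95 and 0.97 in sucrose-exposed males. The 6 values separated by group, but the change of -0.22 (SE 0.10) had an adjusted p of 0.297, and with the GAPDH covariate it was -0.13. CCAP, a cardioactive peptide that also times ecdysis, had a change of -0.18 (adjusted p of 0.421), and bursicon (Burs), which tans the new cuticle, one of 0.14 (0.64). Nplp4, a neuropeptide-like precursor of poorly known function, had 2.16, 1.82 and 1.63 in methylphenidate-exposed males, against 2.59, 2.37 and 1.87 in sucrose-exposed males. The third sucrose-exposed array lay among the drug-exposed ones, and the change of -0.40 (SE 0.18) had an adjusted p of 0.282. It was -0.25 without sucrose-exposed replicate 1, -0.61 without replicate 3, and -0.07 with the GAPDH covariate. Over all 38 genes, the 95% interval lay within 0.5 either way for 34 (89.5%), with a median half-width of 0.23. The array's share was 90.8% of probe sets, and 87.7% at 1 probe set per gene.

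**Figure D2:**
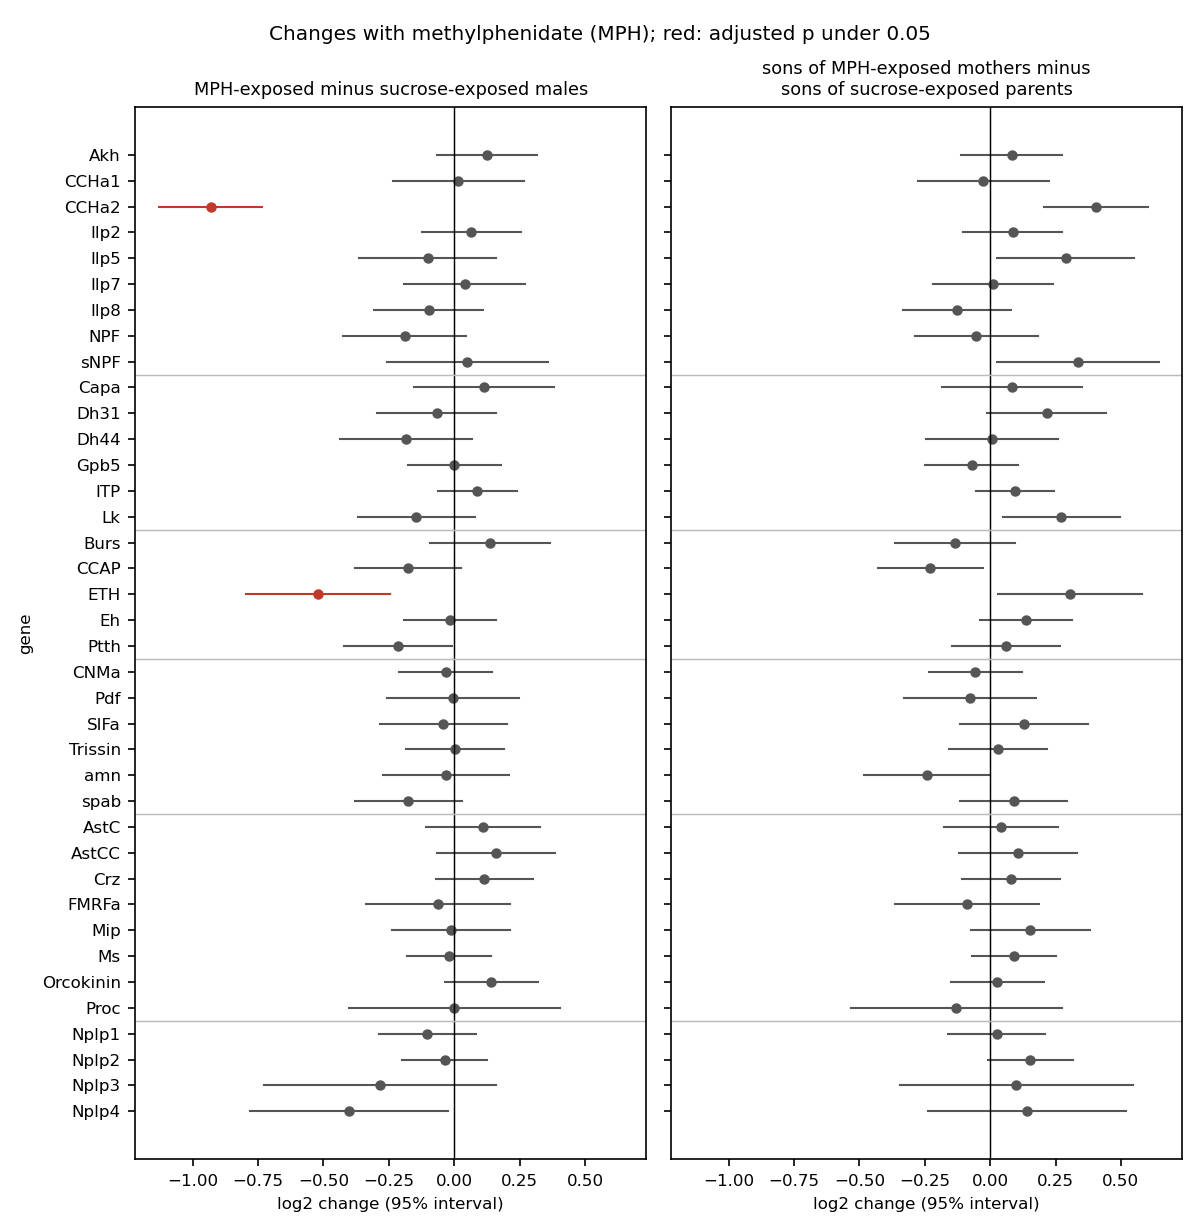
Log2 change of each of the 38 genes with its 95% interval (limma), in exposed males (left) and in F1 males by the mother's exposure (right). Red points passed an adjusted p of 0.05: CCHa2 (-0.93) and ETH (-0.52) in exposed males, and none in F1 males.

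Marker genes of other tissues moved in the same comparison. Of 4 midgut enterocyte genes, the proteases Jon25Bi and Jon99Fi changed by -1.81 and -3.26 and the maltase Mal-A1 by 0.50, all past the threshold. The fourth, alphaTry, changed by -0.26 and did not pass (adjusted p of 0.103 in limma). The mean log2 signal over the 4 lay between 6.13 and 6.35 in methylphenidate-exposed males, against 7.11 to 7.68 in sucrose-exposed males. The sums of their signals off the log scale overlapped, at 1110 to 1287 in methylphenidate-exposed males and 1133 to 1350 in sucrose-exposed males. For the 4 enteroendocrine genes found (pros, NPF, Mip and Dh31, of which the last 3 are in the list of 38), the means lay between 2.73 and 2.82 in methylphenidate-exposed males and between 2.77 and 2.96 in sucrose-exposed males, and none passed. The fat body genes (Lsp2, fon, Fbp1 and apolpp) averaged 5.89 to 6.69 in methylphenidate-exposed males and 5.76 to 6.10 in sucrose-exposed males, none past the threshold. Of the 8 neuronal genes 1 passed, Rim, at -0.38, and of 6 testis genes 1, w-cup, at -0.27. The part of gut content, RNA integrity or tissue shares in the changes of CCHa2 and ETH was not tested beyond the GAPDH covariate. With it, CCHa2 changed by -1.0 (adjusted p of 0.0017 in limma) and ETH by -0.42 (adjusted p of 0.506). The GAPDH difference itself averaged 1.504 in methylphenidate-exposed and 1.62 in sucrose-exposed males, so the covariate cannot fully separate RNA integrity from the drug.

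The F1 comparison is about the mother's exposure, with the father given sucrose in both crosses. None of the 38 genes passed the threshold, where 1 probe set of the whole array did (0.00533%). At an unadjusted p under 0.05 there were 7 genes (18.4%), against 8.06% of probe sets. Groups did not overlap for 6 genes (15.8%), all higher in sons of drug-exposed mothers, against 11.5% of probe sets and 7.56% higher. The median change was 0.08, against 0.03 over all probe sets, and 27 of 38 genes (71.1%) had a positive sign, against 59.7% of probe sets. At 1 probe set per gene, 8.85% of the array had an unadjusted p under 0.05 in limma and 63.4% a positive sign. On that basis groups did not overlap for 12.1%, with 8.52% higher. Without replicate 3 of the sons of sucrose-exposed parents, the dimmest array, 24 genes were positive, against 50.7% of probe sets, and the median was 0.02. The 95% interval lay within 0.5 either way for 31 genes (81.6%), against 93.7% of probe sets, and within 1 for all 38, against 99.4%. At 1 probe set per gene these array shares were 92.2% and 99.3%.

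CCHa2 had the smallest p here too. Its signal was 5.57, 5.47 and 5.39 in sons of drug-exposed mothers and 5.18, 5.17 and 4.88 in sons of sucrose-exposed parents. The groups did not overlap, and the change was 0.40 (SE 0.09, 95% interval 0.20 to 0.60), opposite in sign to that in exposed males, with an adjusted p of 0.275 in limma. Without the third array of sons of sucrose-exposed parents the change was 0.31. Ilp5, an insulin of the brain's insulin-producing cells, had 1.98, 2.03 and 1.97 in sons of drug-exposed mothers, against 1.71, 1.94 and 1.46 in sons of sucrose-exposed parents. Its groups did not overlap either, narrowly, and its change of 0.29 (SE 0.12) had an adjusted p of 0.605. Without the same array as above it was 0.17. Ilp2, another insulin of the same cells, had a change of 0.09 (95% interval -0.10 to 0.28).

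Leucokinin (Lk), a diuretic peptide that acts on the renal tubules, had 1.56, 1.44 and 1.46 in sons of drug-exposed mothers and 1.27, 1.01 and 1.37 in sons of sucrose-exposed parents. The groups did not overlap, and the change was 0.27 (SE 0.10) with an adjusted p of 0.557, or 0.17 without replicate 2 of the sons of sucrose-exposed parents. CCAP had 0.40, 0.23 and 0.57 in sons of drug-exposed mothers and 0.71, 0.67 and 0.50 in sons of sucrose-exposed parents. These values overlapped near the floor, and the change of -0.23 (SE 0.09) had an adjusted p of 0.595, or was -0.14 without replicate 2 of the sons of drug-exposed mothers. ETH had a change of 0.30 (SE 0.13, adjusted p of 0.605), sNPF one of 0.34 (SE 0.14, adjusted p of 0.61) and amn, a peptide gene known from memory and sleep studies, one of -0.24 (SE 0.11, adjusted p of 0.619). In this last gene a single array stood apart, the third of sons of sucrose-exposed parents at 0.35, with the other 11 between -0.36 and -0.02. No marker gene passed in F1 males, and the midgut enterocyte mean was 7.80 to 7.97 in sons of drug-exposed mothers, against 8.19 to 8.29 in sons of sucrose-exposed parents. Of the 8 neuronal genes 7 had a positive sign, with a median of 0.14, as did 3 of 4 enteroendocrine genes, with a median of 0.19. The remaining 31 genes had unadjusted p-values above 0.05, the neuropeptide-like precursors Nplp1 to Nplp4 among them with changes of 0.03 to 0.15.

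The question whether the drug effect differed between generations is answered by the difference of the effects, F1 minus exposed. The same 2 genes, CCHa2 and ETH, passed (5.26%), both higher, against 2.09% of probe sets called and 0.671% called higher. At 1 probe set per gene the array's shares were 2.87% and 0.918%. For CCHa2 the effect was 0.40 in F1 males and -0.93 in exposed males, a difference of 1.34 (SE 0.13, 95% interval 1.05 to 1.62, adjusted p of 5.36e-05 in limma). For ETH it was 0.30 in F1 males and -0.52 in exposed males, a difference of 0.82 (SE 0.18, 95% interval 0.43 to 1.21, adjusted p of 0.0306). Sons of drug-exposed mothers had the highest group mean of ETH, 1.74 ± 0.26, and methylphenidate-exposed males the lowest, 0.82 ± 0.08 (SD, n = 3 each). Leaving out 1 array ended the ETH call for 9 of the 12 arrays, with adjusted p of at most 0.0853, and the GAPDH covariate gave 0.74 (adjusted p of 0.163).

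The next smallest p-values were those of Lk, with a difference of 0.42 (SE 0.15, adjusted p of 0.184), and Ilp5, with 0.39 (SE 0.17, adjusted p of 0.288). Nplp4 had a difference of 0.54 (SE 0.25, adjusted p of 0.307). Over the 38 genes the median difference was 0.02, against 0.04 over all probe sets, and 20 genes (52.6%) had opposite signs in F1 and exposed males, against 56.1% of probe sets. These differences rest on 4 group means, so their intervals are wider: 23 genes (60.5%) had an interval within 0.5 either way, against 68.3% of probe sets. At 1 probe set per gene, as the 38 are taken, the array's share was 61.6%.

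The last comparison sets sons of sucrose-exposed parents against sucrose-exposed males, which were both without drug but differ in generation and in whatever age, rearing or handling went with it, and these cannot be told apart. The neuropeptide-like precursor genes Nplp2, Nplp3 and Nplp4 rose in the F1 males, and Lk fell. These 4 genes were 10.5% of the 38, below the 20.5% of probe sets called and the 27.6% called at 1 probe set per gene. Of the 38 genes 3 were called higher, all neuropeptide-like precursors, and 1 lower. Calls on the array ran 6.33% higher and 14.2% lower, or 8.63% and 19% at 1 probe set per gene. The share of the 38 called higher lay between the array's shares called higher on these bases. Groups did not overlap for 9 genes (23.7%), against 32.9% of probe sets, and the median change was -0.00, against -0.03.

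Nplp3 had 9.33, 9.50 and 9.19 in sons of sucrose-exposed parents, against 8.22, 8.18 and 8.10 in sucrose-exposed males, and it rose by 1.18 (SE 0.21, adjusted p of 0.00171 in limma), or 2.26-fold. Nplp4 had 3.38, 3.19 and 3.11 in sons of sucrose-exposed parents, against 2.59, 2.37 and 1.87 in sucrose-exposed males, and it rose by 0.95 (SE 0.18, adjusted p of 0.00222). In neither gene did the groups overlap, though Nplp4 varied among sucrose-exposed males, with an SD of 0.37. Nplp2 had 10.19, 10.13 and 10.05 in sons of sucrose-exposed parents, against 9.86, 9.85 and 9.80 in sucrose-exposed males. It rose by 0.29 (SE 0.08, adjusted p of 0.0151), a small change with little spread. That call was lost without sucrose-exposed replicate 3 (adjusted p of 0.0592) and with the GAPDH covariate (0.0691). The drug groups of the same generations sat at similar levels. Nplp3 had 9.38, 9.40 and 9.54 in sons of drug-exposed mothers and 7.85, 8.51 and 7.29 in methylphenidate-exposed males, the widest spread of any gene listed. Nplp4 had 3.29, 3.64 and 3.18 in sons of drug-exposed mothers, against 2.16, 1.82 and 1.63 in methylphenidate-exposed males. Nplp2 had 10.28, 10.30 and 10.25 in sons of drug-exposed mothers and 9.95, 9.71 and 9.74 in methylphenidate-exposed males.

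For all 3 of these genes, every one of the 6 F1 arrays lay above every one of the 6 arrays of exposed males. This held for 3.96% of probe sets, and for 5.32% of genes at 1 probe set per gene. Nplp1, the fourth neuropeptide-like precursor gene and one whose products are established neuropeptides, was not among these 3. Its change between the sucrose groups was -0.14 (SE 0.09, adjusted p of 0.302 in limma). In the reverse direction, with the 6 F1 arrays all below the 6 others (5.83% of probe sets), stood only Akh among the 38. At 1 probe set per gene that share was 7.91%. Taking both directions, 4 of the 38 genes (10.5%) separated in this way, against 9.79% of probe sets and 13.2% at 1 probe set per gene. Akh had 3.02, 3.12 and 2.97 in sons of sucrose-exposed parents, against 3.34, 3.26 and 3.22 in sucrose-exposed males. Its drug groups had 3.18, 3.22 and 2.97 in sons of drug-exposed mothers and 3.40, 3.26 and 3.54 in methylphenidate-exposed males. The arrays separated by generation only narrowly. The change between the sucrose groups was -0.23 (SE 0.09, adjusted p of 0.0876), while the F test over the 4 groups gave an adjusted p of 0.0339.

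Lk had 1.27, 1.01 and 1.37 in sons of sucrose-exposed parents, against 1.43, 1.60 and 1.63 in sucrose-exposed males. It fell by 0.34 (SE 0.10, adjusted p of 0.0338), or 1.26-fold, with no overlap, while its drug groups, with 1.56, 1.44 and 1.46 in sons of drug-exposed mothers and 1.56, 1.23 and 1.44 in methylphenidate-exposed males, had means of 1.49 and 1.41, between those of the sucrose groups. The call on Lk was lost without sucrose-exposed replicate 2 (adjusted p of 0.0926) or 3 (0.121) or if replicate 2 of the sons of sucrose-exposed parents was left out (0.154). It was also lost after median centring (0.121), after quantile normalization (0.136), with a variance trend and robust estimation (0.0531), with the GAPDH covariate (0.0612) and in a fit of the sucrose groups alone (0.0561). Capa had 1.39, 1.52 and 1.25 in sons of sucrose-exposed parents and 1.58, 1.90 and 1.69 in sucrose-exposed males, with 1.62, 1.25 and 1.53 in sons of drug-exposed mothers and 1.61, 2.01 and 1.89 in methylphenidate-exposed males. The sucrose groups did not overlap, but the change of -0.34 (SE 0.12) had an adjusted p of 0.0715, against 0.0409 in the F test over the 4 groups. Dh44 had a change of -0.30 (SE 0.12, adjusted p of 0.0906), and the ion transport peptide ITP, which limits water loss, one of 0.01 (95% interval -0.14 to 0.16).

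Among the other roles, Burs had a change of 0.32 (SE 0.11), with an adjusted p of 0.0504 that crossed the threshold under some alternative settings, and Ptth one of -0.26 (SE 0.10, adjusted p of 0.0704). The circadian peptide Pdf had a change of -0.22 (SE 0.12, adjusted p of 0.246). Ilp5 had 1.64, 1.37 and 1.36 in methylphenidate-exposed males and 1.76, 1.40 and 1.52 in sucrose-exposed males, all below the 3 sons of drug-exposed mothers given above. Its F test over the 4 groups gave an adjusted p of 0.0217, and its change between the sucrose groups was 0.15 (SE 0.12, adjusted p of 0.488). CCHa2 had a change of 0.21 (SE 0.09, adjusted p of 0.128). The allatostatin gene AstC and the myosuppressin gene Ms, both well above the floor, had changes of 0.10 (95% interval -0.12 to 0.32) and -0.01 (interval -0.17 to 0.15).

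**Figure D3:**
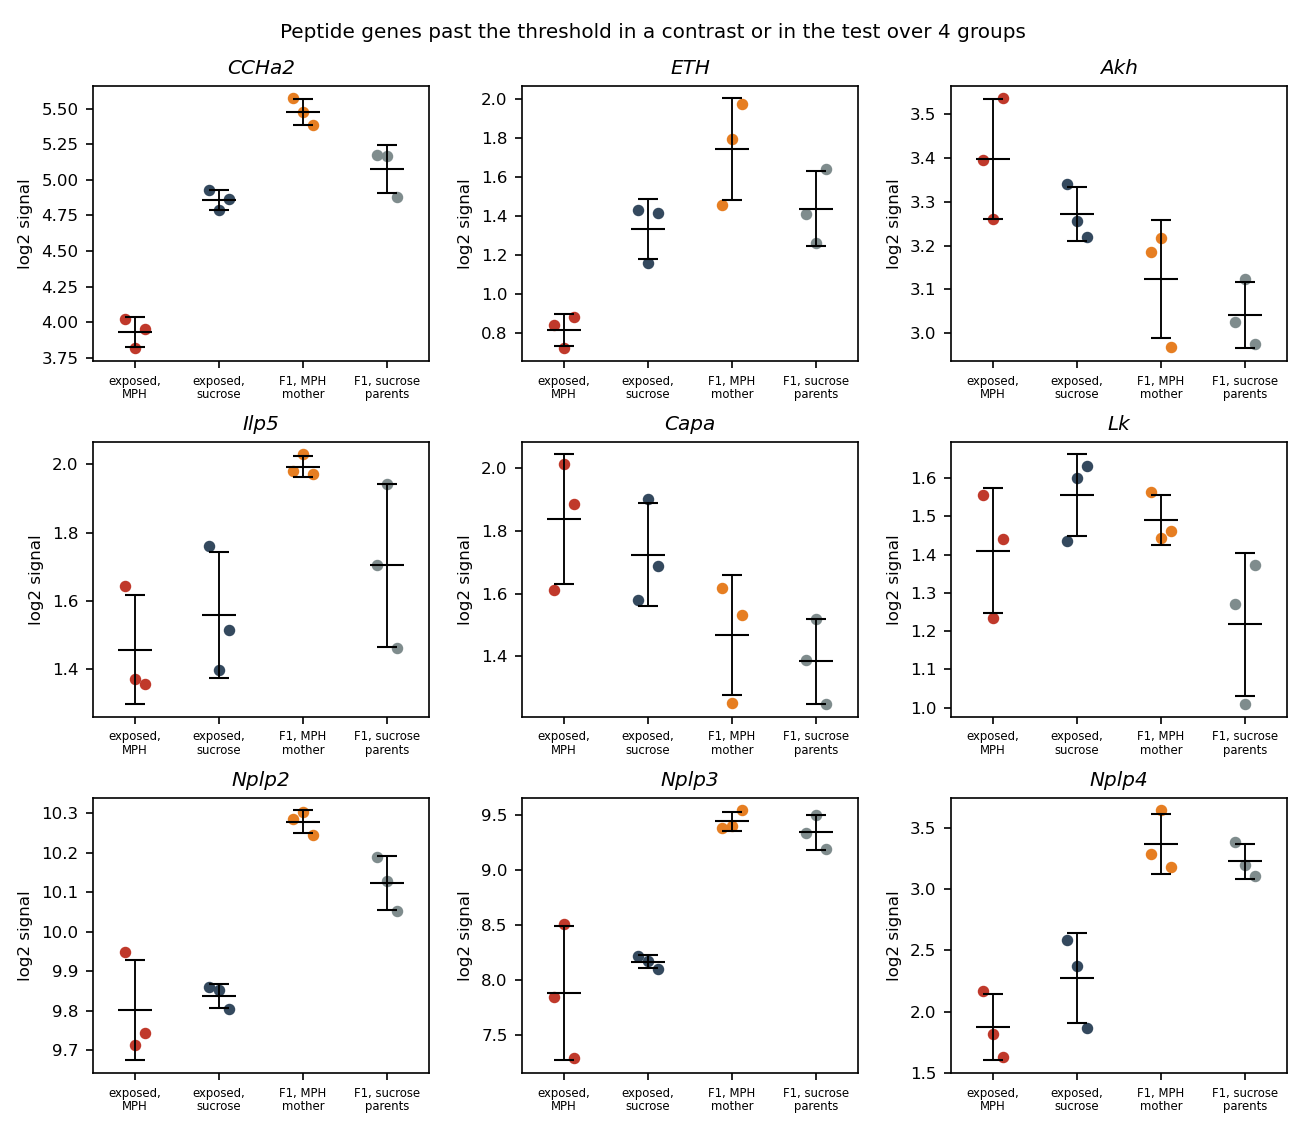
Log2 signal on each array (dots) with the mean and SD of each group (n = 3) for the 9 genes past the threshold in a comparison or in the F test. CCHa2 and ETH are lowest in the methylphenidate-exposed males, and Nplp2, Nplp3 and Nplp4 are higher on all 6 F1 arrays than on the 6 arrays of exposed males.

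**Figure D4:**
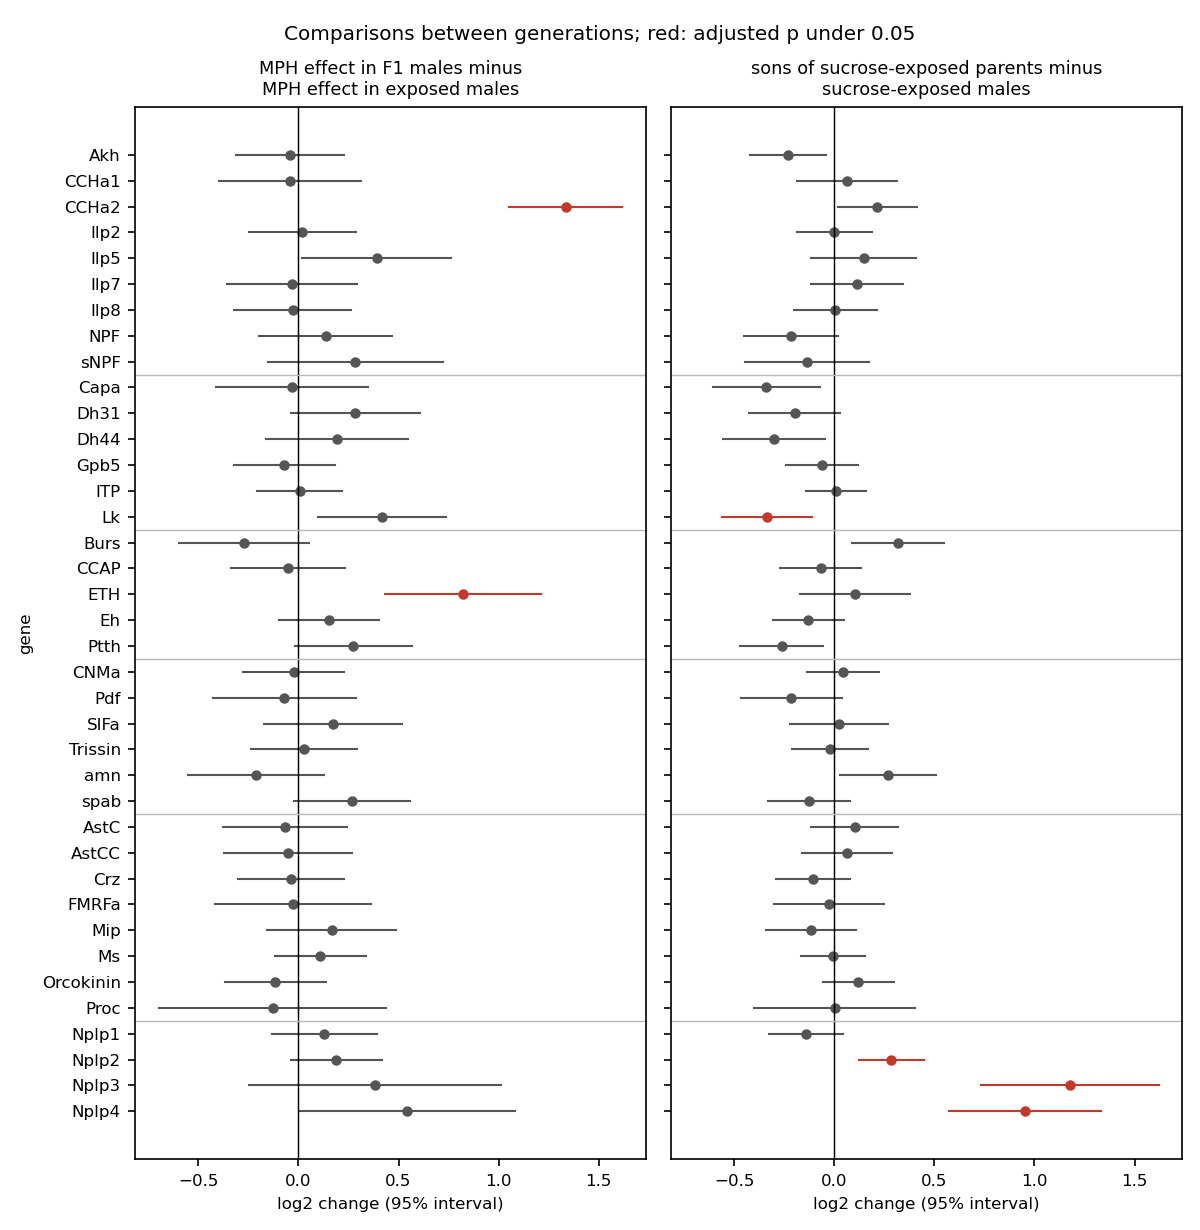
Log2 difference of the drug effects (F1 minus exposed males, left) and log2 change between the sucrose groups (sons of sucrose-exposed parents minus sucrose-exposed males, right) for the 38 genes, with 95% intervals (limma). Red points passed an adjusted p of 0.05: CCHa2 and ETH on the left, and Nplp2, Nplp3, Nplp4 and Lk on the right.

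Markers of several tissues moved between the sucrose groups as well. All 4 fat body genes rose, Fbp1 by 2.34 and Lsp2 by 1.38, and the mean over them lay between 6.71 and 7.34 in sons of sucrose-exposed parents, against 5.76 to 6.10 in sucrose-exposed males. The midgut genes Jon25Bi, Jon99Fi and Mal-A1 rose, 3 of 4, as did 3 of 4 accessory gland genes and the female yolk protein gene Yp3, by 1.39. Both muscle genes found rose, and their mean was 8.43 to 8.75 in sons of sucrose-exposed parents, against 7.68 to 7.91 in sucrose-exposed males. Of 6 testis genes 4 fell, with a mean of 3.88 to 4.11 in sons of sucrose-exposed parents and 4.32 to 4.41 in sucrose-exposed males. Of the 4 genes listed as enteroendocrine pros passed, falling by 0.39, and all 4 had a negative sign, with a median of -0.21. Of the 8 neuronal genes Rim passed, likewise falling by 0.39, and 6 had a negative sign, with a median of -0.19. The median over all probe sets was -0.03. The part of these shifts in the changes of Nplp2, Nplp3, Nplp4 and Lk was not tested.

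Genes that receive, make or break down these peptides were measured in lists compiled from general knowledge of the pathway. Of 40 peptide receptors 25 were found, and the ETH receptor was not among them. In exposed males 1 of 25 was lower and none higher, with a median of -0.00, against -0.02 for all probe sets. It was AkhR, the receptor through which adipokinetic hormone acts on the fat body, at 4.02, 3.69 and 3.86 in methylphenidate-exposed males, against 5.0, 4.87 and 4.85 in sucrose-exposed males. AkhR fell by 1.05 (SE 0.11, adjusted p of 5.36e-05), while its ligand gene Akh had a change of 0.12. In F1 males none of the 25 passed, and AkhR, at 4.32, 4.28 and 4.63 in sons of drug-exposed mothers and 4.0, 4.0 and 3.72 in sons of sucrose-exposed parents, had a change of 0.50 (SE 0.11, adjusted p of 0.275). Its difference of effects was 1.55 (SE 0.16, adjusted p of 7.87e-05), the only call among receptors. Averaged over its probe sets, AkhR changed by -0.61 in exposed males, -0.59 between the sucrose groups and 0.85 in the difference of effects, all past the threshold.

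The receptors of CCHa2 and Lk lay near the floor. CCHa2-R averaged 0.34 ± 0.07 in methylphenidate-exposed males and 0.38 ± 0.08 in sucrose-exposed males (SD, n = 3 each), and the leucokinin receptor Lkr averaged 0.46 ± 0.14 in sons of sucrose-exposed parents and 0.36 ± 0.13 in sucrose-exposed males (SD, n = 3 each). Neither passed in any of the 4 comparisons. Between the sucrose groups 3 of 25 receptors fell and none rose, against 14.2% of probe sets called lower and 20.5% called in all, with a median of -0.02, against -0.03 for all probe sets. AkhR fell by 1.0 (SE 0.11, adjusted p of 0.000168), the insulin receptor InR by 0.54 (SE 0.10, adjusted p of 0.00215) and SPR, the receptor of sex peptide and of the Mip peptides, by 0.47 (SE 0.13, adjusted p of 0.0178). InR had 3.46, 3.12 and 3.10 in sons of sucrose-exposed parents and 3.87, 3.71 and 3.73 in sucrose-exposed males, a clean separation. The SPR call was lost without sucrose-exposed replicate 1 (0.0663) or 2 (0.0709), without replicate 3 of the sons of sucrose-exposed parents (0.0709) and with the GAPDH covariate (0.123). InR was also the only gene called of 8 found in a list of 13 for insulin binding and signalling, in any comparison.

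Of 12 genes of peptide processing and release (14 listed) none passed in exposed males, in F1 males or in the difference of effects. Between the sucrose groups IA-2, a phosphatase-like protein of dense-core vesicles, fell by 0.36 (SE 0.10, adjusted p of 0.0173), but its probe sets disagreed and their mean had a change of -0.12 (adjusted p of 0.276). That call was also lost without sucrose-exposed replicate 1 (0.0542) or 2 (0.0555), without replicate 2 (0.0733) or 3 (0.0768) of the sons of sucrose-exposed parents, and with the GAPDH covariate (0.0638). Of 10 peptide-degrading enzymes (12 listed), the neprilysin-like Nep6 rose in exposed males by 0.45 (SE 0.11, adjusted p of 0.0352), a call lost with the GAPDH covariate (0.408) and within the exposed arrays alone (0.104). It was also lost without any one of 7 arrays: the 3 sucrose-exposed arrays, drug-exposed replicates 1 and 3, and replicates 2 and 3 of the sons of drug-exposed mothers (adjusted p between 0.0501 and 0.164). Nep7, of the same family, differed between the effects by -0.66 (SE 0.13, adjusted p of 0.0159), with values of 0.48, 0.51 and 0.50 in sons of drug-exposed mothers and 0.86, 1.09 and 0.72 in sons of sucrose-exposed parents. It had 0.97, 0.82 and 0.98 in methylphenidate-exposed males, against 0.76, 0.61 and 0.61 in sucrose-exposed males, and the call was lost with the GAPDH covariate (0.0585). Ance, an angiotensin-converting enzyme homologue, rose between the sucrose groups by 0.34 (SE 0.08, adjusted p of 0.00932), a call lost without sucrose-exposed replicate 1 (0.0508) and with the GAPDH covariate (0.0611).

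Of 13 further peptide precursor genes only 2 were found, natalisin and Lst. Limostatin (Lst), a corpora cardiaca peptide that suppresses insulin release in starved flies, had the opposite sign to CCHa2 in both generations. It had 6.44, 6.05 and 6.20 in methylphenidate-exposed males, against 5.57, 5.45 and 5.92 in sucrose-exposed males, and rose by 0.58 (SE 0.14, adjusted p of 0.032). In F1 males it had 5.31, 5.11 and 5.15 in sons of drug-exposed mothers and 5.82, 6.02 and 5.58 in sons of sucrose-exposed parents, with a change of -0.62 (SE 0.14, adjusted p of 0.275). The groups did not overlap in either generation, and the difference of the effects was -1.2 (SE 0.19, adjusted p of 0.00351). The call in exposed males was lost without sucrose-exposed replicate 1 (0.13) or 2 (0.116) and without drug-exposed replicate 1 (0.15) or 3 (0.0747). With the GAPDH covariate the change there was 0.29 (adjusted p of 0.646), within the exposed arrays alone the adjusted p was 0.0784, and with array weights it was 0.0509.

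**Figure D5:**
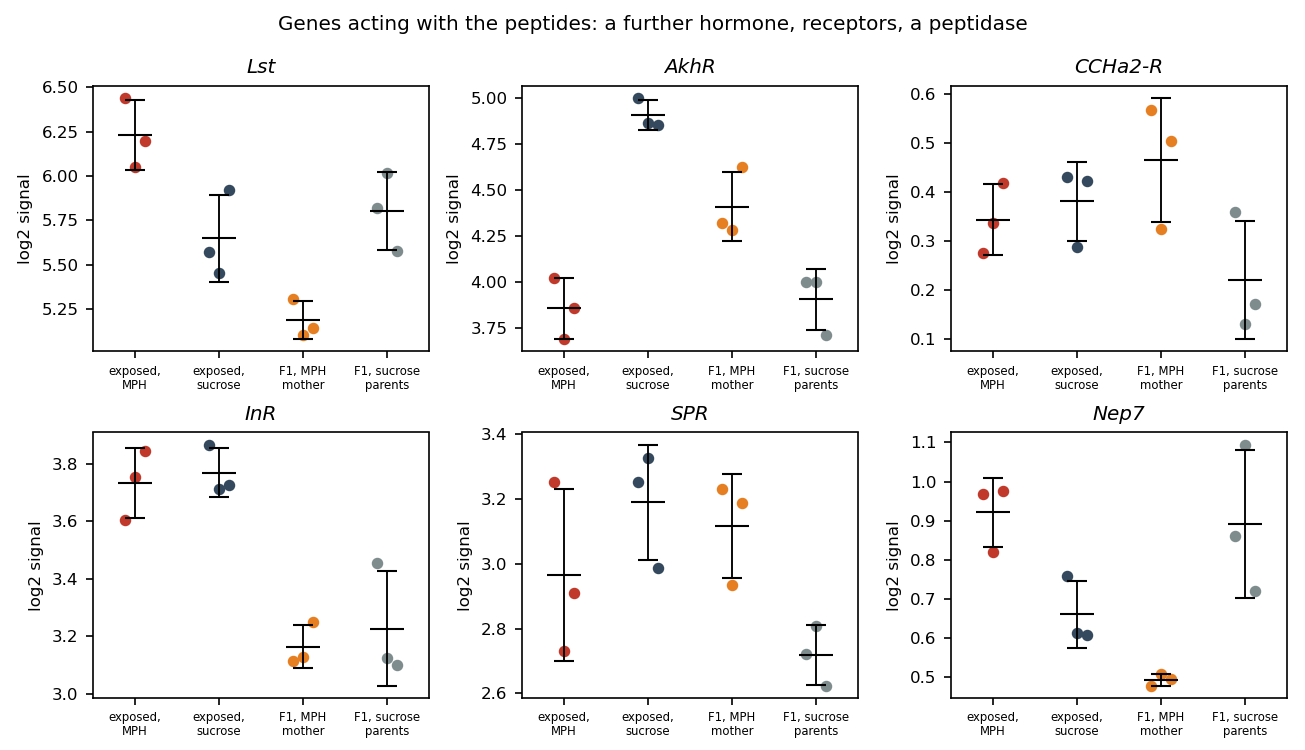
Log2 signal on each array (dots) with the mean and SD of each group (n = 3) for 6 genes of the pathway: Lst, AkhR, CCHa2-R, InR, SPR and Nep7. AkhR is highest in sucrose-exposed males, Lst is highest in methylphenidate-exposed males and lowest in sons of drug-exposed mothers, and CCHa2-R lies near the floor throughout.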

How the data were processed

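The authors deposited a table of log2 signals, with a value for each probe set on each array. Per the submitters' processing notes they used RMA, affy and limma, whose versions, order and settings no source used here states. The log base was checked on the bacterial hybridization controls, whose signal rose by 6.22 from BioB to Cre, where the nominal concentrations differ by 6.06 on the log2 scale.

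The table had 18952 probe sets, and the 18769 that are not among its 183 controls were tested with no filter on dim ones. Names came from the array's annotation, updated through RefSeq gene identifiers: 13647 probe sets had 1 gene, 402 had several (never named) and 4720 were unnamed here. A gene with several probe sets was represented by the one with the highest mean. In R 4.3.3, limma 3.58.1 (lmFit, contrasts.fit, eBayes, all at their defaults) fitted the 4 group means to all 12 arrays at once. Tests were two-sided, with a Benjamini-Hochberg adjusted p under 0.05 over all 18769 probe sets as threshold. Errors of changes are standard errors (SE) of that fit. The code was tested on simulated data. Plots used matplotlib 3.10.9. The number of arrays limits the precision.

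The 38 genes, the other lists and the tests were chosen with earlier results of these data known. Values on every array are given for genes past the threshold in a comparison or the F test and for the 4 with the smallest p in each comparison. From the other lists, up to 4 genes with the smallest p and the receptors of called genes could be named. Alternatives were filters on dim probe sets, quantile normalization, median centring, variance trend with robust estimation, array weights, the GAPDH difference as covariate, other ways to choose a gene's probe set, a replicate block, each array left out in turn, and only the arrays compared. Replicate numbers were not taken as pairs in the main fit. Of 18 pairs with the same number, 2 had deviations correlated above 0.1, over a range of -0.174 to 0.133. Pairs with different numbers were not compared, so these correlations cannot show whether the numbers paired the arrays.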

Additional observations from a re-analysis of the deposited data

Results flagged for a closer look

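CCHa2 and ETH stood out because the effect of methylphenidate differed between the generations in a test of the difference itself. For CCHa2 the effect in F1 males minus that in exposed males was 1.34 (adjusted p of 5.36e-05 in limma), with group means of 5.48 in sons of drug-exposed mothers and 5.07 in sons of sucrose-exposed parents, against 3.93 in methylphenidate-exposed males and 4.86 in sucrose-exposed males. For ETH the difference was 0.82 (adjusted p of 0.0306), with means of 1.74 in sons of drug-exposed mothers, 1.44 in sons of sucrose-exposed parents, 0.82 in methylphenidate-exposed males and 1.34 in sucrose-exposed males. The exposure of the 2 generations was of a different kind, the flies themselves against their mothers, and generation, age and handling cannot be told apart from it.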

How the results depend on the processing

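No called change of a peptide or pathway gene, and none of the peptide genes with the smallest p in each comparison, reversed in sign under the alternatives run. The small changes of the other genes were not followed through them and may. The call on CCHa2 held under all 23 alternatives in exposed males (-1.0 to -0.88) and all 22 for the difference of effects (1.24 to 1.40), and those on Nplp3 and Nplp4 held under all 23 between the sucrose groups. ETH lost its call under 9 of 22 alternatives in exposed males and 12 of 21 for the difference, and Lk under 8 of 22. In exposed males the count of 2 genes became 1 with the dimmest 50% of probe sets left out (ETH was then not tested), with quantile normalization and with the GAPDH covariate. Leaving out 1 array gave 1 to 2 genes, and the 2 without drug-exposed replicate 2 were CCHa2 and Nplp3, not ETH. For the difference of effects, 2 genes became 1 under the same 3 settings and with median centring, and 1 to 2 with 1 array left out. Its ETH call was lost without any of the 3 drug-exposed arrays, sucrose-exposed replicate 1 or 3, replicate 1 or 2 of the sons of sucrose-exposed parents, or replicate 2 or 3 of the sons of drug-exposed mothers. Between the sucrose groups 4 genes became 2 with the GAPDH covariate, and 2 to 7 with 1 array left out: 2 without sucrose-exposed replicate 3, and 7 when replicate 1 of the sons of sucrose-exposed parents was left out, which added amn, Burs and Dh31. The F test's 8 genes became 5 to 8, the 5 without drug-exposed replicate 3. In F1 males the count was 0 throughout, with 7 at an unadjusted p under 0.05 in limma and 2 to 8 under the alternatives. The replicate block, which takes arrays with the same replicate number as a set, gave 2 genes in exposed males and 0 in F1 males. It gave 2 for the difference, 5 between the sucrose groups (adding Burs) and 6 in the F test. It ended the call on Lst in exposed males (adjusted p of 0.0528) and no other call on a peptide or pathway gene in a comparison between groups. A fit of only the arrays compared could not be made for the difference of effects or the F test. Of the 38 genes, 21 were left by the filter on the dimmest 50%, and ETH and Lk were not among them.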
